A study of Sus scrofa with 24 samples.

Results

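The miR-532, miR-500, miR-362 and miR-660 miRNAs form a cluster on the pig X chromosome, and their levels were followed during the differentiation of porcine adipocytes. The members were the entries of the deposited miRNA table named ssc-miR-188, ssc-miR-362, ssc-miR-500, ssc-miR-501, ssc-miR-502, ssc-miR-532 or ssc-miR-660, with any suffix. This gave 6 of the 1587 entries: ssc-miR-532-5p, ssc-miR-532-3p, ssc-miR-500-5p, ssc-miR-500-3p, ssc-miR-362 and ssc-miR-660. No entry was named ssc-miR-188, ssc-miR-501 or ssc-miR-502, so these were not analysed here. Preadipocytes came from the back subcutaneous fat (BF) and from the longissimus dorsi muscle (IMF) of 3 Yorkshire piglets, 6 days old. They were released with collagenase and grown to near confluence. They then received 3-isobutyl-1-methylxanthine, dexamethasone and insulin for 2 days, insulin alone for the next 2 days, and growth medium after that. RNA for small RNA libraries was taken before induction (day 0) and again on days 2, 4 and 8, which gave 8 groups of 3 libraries. The study asked which miRNAs separate the differentiation of subcutaneous from that of intramuscular adipocytes. The groups are primary cultures, and the labels do not tie a library to a piglet, so p-values measure the spread between these libraries, which may in part be technical.

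A miRNA is cut from a hairpin precursor, and either arm of the hairpin (5p or 3p) can give a short mature strand. The mature strand guides Argonaute proteins to mRNAs that pair with its seed, here bases 2 to 8, and those mRNAs are repressed. miRNAs that lie close together on one strand can be cut from one primary transcript, but each hairpin is processed on its own and each arm is kept or lost on its own. In human and mouse the miR-532 cluster lies in an intron of CLCN5, the gene of a chloride and proton exchanger, and it includes miR-188, a miRNA known to favour adipocyte over osteoblast formation.

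The mature sequences are printed first because the members can be told apart, or not, only by these letters. They are given from 5′ to 3′ with the seed in capitals. The last line is novel_miR_713, an entry predicted by the authors whose hairpin lies between those of miR-362 and miR-660, and which is no member.
ssc-miR-532-5p: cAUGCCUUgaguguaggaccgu
ssc-miR-532-3p: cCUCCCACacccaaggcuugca
ssc-miR-500-5p: uAAUCCUUgcuaccugggugaga
ssc-miR-500-3p: aUGCACCUgggcaaggauucu
ssc-miR-362: aAUCCUUGgaaccuaggugugagug
ssc-miR-660: uACCCAUUgcauaucggaguug
novel_miR_713: aGUGCACCugggcaaggauucug
The 6 members have 6 different seeds. ssc-miR-500-5p and ssc-miR-362 hold the same run AAUCCUUG, which starts at base 2 of ssc-miR-500-5p and at base 1 of ssc-miR-362, so their seeds are shifted by 1 base. Among the 958 entries with a mature sequence, the only other entry with a member's seed was novel_miR_1130, which has that of ssc-miR-532-3p.

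In Sscrofa11.1, the build the authors used, the 4 member precursors lie on the plus strand of chromosome X within 8.89 kb. The miR-532 precursor is at chrX:43705258-43705337, that of miR-500 at chrX:43711254-43711333, that of miR-362 at chrX:43711726-43711804 and that of miR-660 at chrX:43714076-43714144. The RefSeq annotation of this assembly has the genes MIR532, MIR500 and MIR362 at the first 3 positions and no gene at the position of miR-660. No protein-coding gene of that annotation covers any of the precursors, so the annotation does not place the pig cluster in a CLCN5 intron. Its CLCN5 record, on the same strand at chrX:43779016-43809472, is marked partial and begins 64.9 kb after the last precursor. The nearest protein-coding gene on the other side, USP27X, ends 148011 bp before the first.

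**Figure D1:**
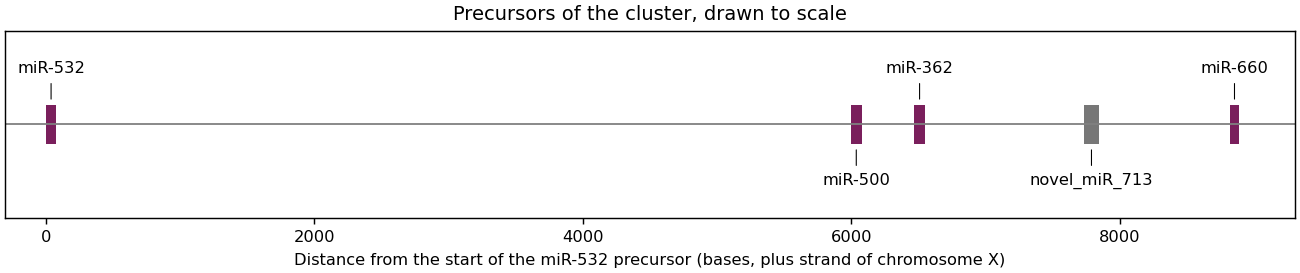
The axis gives the distance in bases from the start of the miR-532 precursor along the plus strand of chromosome X, and the boxes are the precursors at scale, with members in purple and novel_miR_713 in grey. The miR-500 precursor begins 5996 bases and the miR-660 precursor 8818 bases after that of miR-532.

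The hairpins of miR-500 and novel_miR_713 are printed because they share the ssc-miR-500-5p sequence, shown in capitals. They are at chrX:43711254-43711333 and chrX:43712991-43713099 on the plus strand.
miR-500 hairpin: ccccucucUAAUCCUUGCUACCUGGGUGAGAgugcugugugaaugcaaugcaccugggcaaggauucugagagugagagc
novel_miR_713 hairpin: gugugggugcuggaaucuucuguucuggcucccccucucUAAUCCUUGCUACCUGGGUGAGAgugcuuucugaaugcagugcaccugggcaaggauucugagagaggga
The ssc-miR-500-5p sequence occurs at 2 places in the genome, chrX:43711262-43711284 and chrX:43713030-43713052, 1 in each hairpin, so its reads cannot be assigned to either. The other 5 members occur at 1 place each. Over their 21 shared positions, ssc-miR-500-3p and novel_miR_713 differ at 1, written A1G with positions counted from the 5′ end of ssc-miR-500-3p. The novel_miR_713 level was between 0 and 1.92 TPM, or 0 to 25 reads, in the 24 libraries, and its mean of 0.915 TPM was just under the minimum for testing.

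Levels are in TPM, the authors' name for reads per 1000000 reads counted on miRNAs in a library. Libraries held from 4954845 to 16863560 such reads, so 1 read was worth 0.0593 to 0.202 TPM. A level is thus a share, and ssc-miR-21-5p, the most abundant entry, took 49.0% to 60.5% of the reads up to day 4, 27.9% to 40.3% in BF-8d and 39.4% to 45.0% in IMF-8d. Scaling the libraries by median-of-ratios instead of by total reads moved the median log2 difference of all tested entries by -0.11 in BF-0d vs. BF-8d, by 0.34 in BF-4d vs. IMF-4d and by 0.21 in BF-8d vs. IMF-8d. It moved by -0.16 in IMF-4d vs. IMF-8d and by at most 0.13 in size in the other comparisons. Adipocyte marker mRNAs cannot be read in small RNA libraries. Of the skeletal muscle markers, ssc-miR-1 was at 450.3 to 2324 TPM in all libraries, ssc-miR-133a-3p at 7.53 to 30.2 and ssc-miR-499-5p at 8.57 to 23.2. ssc-miR-206 was at 0 in 13 of the 24, and miR-208b had no entry. Erythroid markers summed to at most 7.01 TPM and leukocyte markers to at most 2.60 TPM, with ssc-miR-144 and ssc-miR-223 at 0 in 22 libraries each and ssc-miR-150 at 0 in 23.

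All 6 members were detected in every library, and ssc-miR-532-5p made up most of their reads. Its mean over the 24 libraries was 1297 TPM, with a range of 819 to 2140 TPM (7442 to 27464 reads), which ranked 29 among the 1587 entries. ssc-miR-500-3p followed at a mean of 84.7 TPM and ssc-miR-500-5p at 30.5 TPM. The means of ssc-miR-362, ssc-miR-660 and ssc-miR-532-3p were 15.8, 12.5 and 5.86 TPM. The mature sequences are of similar length, 21 to 25 nt, and ssc-miR-532-5p held 89.7% of the members' summed level. In single libraries that share was between 86.3% and 92.7%. The scarcest member, ssc-miR-532-3p, rested on 24 to 128 reads, ssc-miR-660 on 43 to 243 and ssc-miR-362 on 71 to 296, so counting error is largest for these.

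Between day 0 and day 8, ssc-miR-532-5p, ssc-miR-532-3p and ssc-miR-500-3p rose in the adipocytes of both sources, and ssc-miR-500-5p and ssc-miR-660 rose in IMF. ssc-miR-362 did not pass the test in either source. A member was said to rise or fall when limma on log2(TPM + 1) gave a Benjamini-Hochberg FDR under 0.05 over the 430 tested entries and a fold change above 1.5. In BF, 3 of 6 members rose, where 27.9% of all tested entries did. In IMF, 5 of 6 members rose, where 19.8% of all tested entries did. The median log2 difference of the members was 0.56 in BF and 0.74 in IMF, beside 0.15 and 0.07 over all tested entries. With median-of-ratios scaling the members' medians were 0.42 and 0.69. All 3 day 8 libraries were above all 3 day 0 libraries for 4 members in BF and 5 in IMF, and for 32.8% and 30.9% of all tested entries. With median-of-ratios scaling this held for 1 member in BF, ssc-miR-500-3p, and for 6 in IMF, beside 27.7% and 28.6% of the entries. The 2 sources share no library, and each was tested against its own day 0.

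Each step of the time course was then tested within its source. In BF, 0 of 6 members passed in BF-0d vs. BF-2d, where 4.19% of the tested entries passed in either direction, and edgeR and DESeq2 each passed 1, ssc-miR-500-5p, the only member at an unadjusted p under 0.05 in limma, beside 104 entries. In BF-2d vs. BF-4d, ssc-miR-532-3p rose, where 5.81% of the entries rose. In BF-4d vs. BF-8d, 0 members passed, where 3.02% of the entries did, while DESeq2 passed 1 and edgeR 0. Again ssc-miR-500-5p alone had an unadjusted p under 0.05, beside 99 entries. In IMF, 0 members passed in IMF-0d vs. IMF-2d and 0 in IMF-2d vs. IMF-4d, where 0.0% of the entries passed by limma in each. At an unadjusted p under 0.05 these 2 IMF steps had 1 member each and 68 and 65 entries. edgeR passed 7 and 1 entries and DESeq2 9 and 2, none of them a member. In IMF-4d vs. IMF-8d, 3 of 6 members rose, where 12.3% of the entries rose: ssc-miR-532-5p, ssc-miR-532-3p and ssc-miR-500-5p. The split of the calls over all entries moved with the scaling. In IMF-4d vs. IMF-8d 53 of 56 calls were higher, against 36 of 47 with median-of-ratios scaling, with which 0 members passed. In BF-2d vs. BF-4d the 2 splits were 25 of 26 and 23 of 38, and in BF-4d vs. BF-8d 10 of 13 and 10 of 15.

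**Figure D2:**
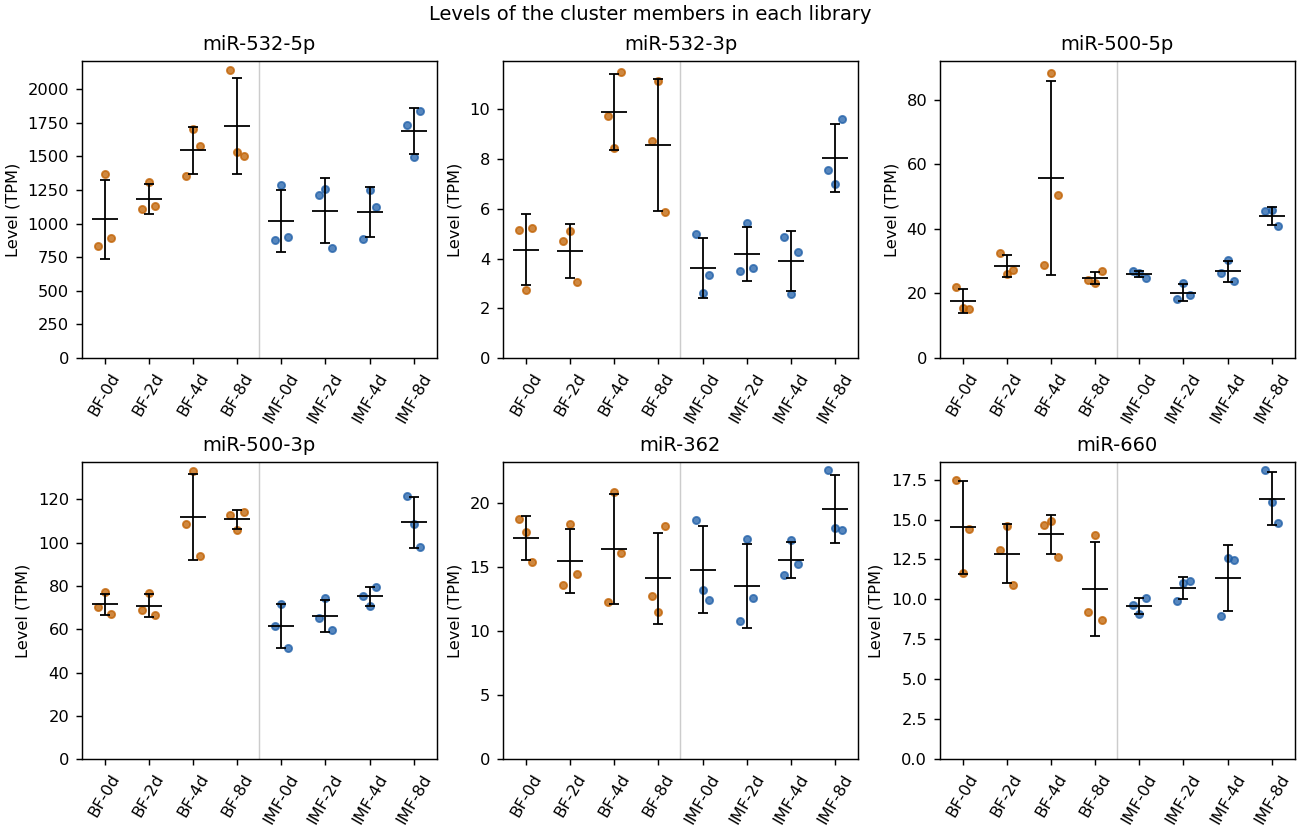
Each panel shows one member, with the level in TPM on the y axis, the 8 groups on the x axis (BF in orange, IMF in blue), a point for each of the 3 libraries of a group, and the mean with 1 SD in black. The 3 IMF-8d libraries of ssc-miR-532-5p sit between 1498 and 1838 TPM, above the 9 earlier IMF libraries, while those of ssc-miR-362 overlap with day 0 in TPM.

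ssc-miR-532-5p, the main strand of its hairpin, was at a similar level in both preadipocytes, with means of 1032 TPM in BF-0d and 1021 TPM in IMF-0d, and at day 4 its means were 1545 TPM in BF and 1086 TPM in IMF. The day 4 log2 difference was -0.52 ± 0.22 (SE, adjusted p = 0.07965 by limma), and no alternative called it. Among the alternatives it was as small as -0.04. With median-of-ratios scaling the libraries overlapped, at 1178 to 1471 TPM in BF-4d and 1047 to 1594 in IMF-4d. In BF its 3 libraries were at 837, 1368 and 890.3 TPM at day 0, at 1109, 1311 and 1131 at day 2, at 1358, 1701 and 1576 at day 4, and at 2140, 1536 and 1502 at day 8. In IMF they were at 876, 1286 and 900.3 TPM at day 0, at 1212, 1256 and 819 at day 2, at 886, 1249 and 1123 at day 4, and at 1732, 1498 and 1838 at day 8. In TPM the lowest day 8 library was above the highest day 0 library in both sources. With median-of-ratios scaling this held in IMF, while in BF day 0 reached 1343 and day 8 began at 1235. The means were 1032 ± 292 and 1726 ± 359 TPM (SD, n = 3) in BF-0d and BF-8d, a log2 difference of 0.76 ± 0.22 (SE, adjusted p = 0.0109 by limma). In IMF they were 1021 ± 230 and 1689 ± 174 TPM (SD, n = 3), a log2 difference of 0.74 ± 0.18 (SE, adjusted p = 0.0198 by limma). The BF call was lost without BF-0d replicate 1 (adjusted p = 0.0515 by limma) or replicate 3 (0.0536), with DESeq2 (log2 difference 0.57, adjusted p = 0.0623) and with no filter on low levels (0.157). The IMF call was lost without IMF-0d replicate 1 (0.0656) or 3 (0.0675), or IMF-8d replicate 1 (0.0620) or 3 (0.0594), and with no filter (0.0909). Ordered by mean, the 5 lowest groups were IMF-0d, BF-0d, IMF-4d, IMF-2d and BF-2d, each overlapping with the next. BF-4d, IMF-8d and BF-8d followed, and in TPM the only gap between neighbours was that between BF-2d and BF-4d, groups that overlapped with median-of-ratios scaling. IMF-4d vs. IMF-8d passed with a log2 difference of 0.65 ± 0.16 (SE, adjusted p = 0.0395 by limma), but in only 1 of 6 fits that left out 1 library, that without IMF-4d replicate 2, with adjusted p up to 0.124 in the others. It was also lost with DESeq2 (0.110), edgeR (0.127), median-of-ratios scaling (0.143) and no filter (0.150).

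ssc-miR-532-3p, the scarce strand of the same hairpin, had its highest means in the same 3 groups. Its BF libraries were at 5.15, 2.72 and 5.22 TPM at day 0, at 4.70, 5.12 and 3.07 at day 2, at 9.72, 8.46 and 11.5 at day 4, and at 8.73, 11.13 and 5.85 at day 8. Its IMF libraries were at 4.97, 2.62 and 3.32 TPM at day 0, at 3.496, 5.43 and 3.60 at day 2, at 4.88, 2.57 and 4.26 at day 4, and at 7.55, 7.02 and 9.61 at day 8. The 9 libraries of BF-4d, BF-8d and IMF-8d were thus all above the other 15. With median-of-ratios scaling BF-8d replicate 3 was not, at 4.89 TPM. The day 0 to day 8 log2 difference was 0.84 ± 0.28 in BF (SE, adjusted p = 0.0221 by limma) and 0.99 ± 0.22 in IMF (SE, adjusted p = 0.0160). It was lost in BF without BF-0d replicate 2 (adjusted p = 0.126 by limma) or BF-8d replicate 2 (0.112), and in IMF without IMF-0d replicate 3 (0.0534) or IMF-8d replicate 1 (0.0506). With no filter both calls were lost (adjusted p = 0.210 in BF and 0.0783 in IMF). BF-2d vs. BF-4d had a log2 difference of 1.05 ± 0.24 (SE, adjusted p = 0.0327 by limma). That call held in 1 of 6 fits without a library, the one without BF-4d replicate 1, and not with edgeR (adjusted p = 0.0530) or no filter (0.265). IMF-4d vs. IMF-8d had a log2 difference of 0.91 ± 0.23 (SE, adjusted p = 0.0415 by limma), and no fit without 1 of its 6 libraries kept the call (adjusted p from 0.0529 to 0.125). Nor did median-of-ratios scaling (0.0753), a pseudocount of 0.1 (0.0539) or no filter (0.156).

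ssc-miR-500-3p, the more abundant strand of the miR-500 hairpin, was the second most abundant member. Its BF libraries were at 70.2, 77.0 and 67.2 TPM at day 0, at 68.9, 76.9 and 66.8 at day 2, at 109, 133 and 93.6 at day 4, and at 113, 106 and 114 at day 8. In IMF they were at 61.3, 71.7 and 51.5 TPM at day 0, at 65.0, 74.3 and 59.5 at day 2, at 75.4, 70.5 and 79.6 at day 4, and at 121, 109 and 98.0 at day 8. In TPM the libraries of BF-4d, BF-8d and IMF-8d were all above those of the other 5 groups. With median-of-ratios scaling they overlapped, with BF-4d at 85.4 to 115 TPM and IMF-4d at 88.7 to 90.0 TPM. BF-2d vs. BF-4d had a log2 difference of 0.64 ± 0.23 (SE, adjusted p = 0.1005 by limma). The day 0 to day 8 log2 difference was 0.63 ± 0.19 in BF (SE, adjusted p = 0.0122 by limma) and 0.83 ± 0.16 in IMF (SE, adjusted p = 0.00890). The IMF call held in all 6 fits without a library and was lost with no filter (adjusted p = 0.0505). The BF call was lost without BF-0d replicate 3 (adjusted p = 0.0667 by limma), and median-of-ratios scaling, edgeR and DESeq2 each gave an FDR under 0.05 but a fold below the criterion, with log2 differences of 0.48, 0.50 and 0.46. In IMF-4d vs. IMF-8d the FDR was also passed and the fold was not, with a log2 difference of 0.53 ± 0.14 (SE, adjusted p = 0.0399 by limma). The adjusted p reached 0.143 over the alternatives and 0.147 in the limma fits without a library. Among the alternatives the log2 difference fell to 0.30.

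ssc-miR-500-5p, the strand with 2 genomic copies, had its highest BF mean at day 4 and its highest IMF mean at day 8. Its BF libraries were at 22.0, 15.6 and 15.2 TPM at day 0, at 32.4, 26.0 and 27.3 at day 2, at 28.8, 88.2 and 50.35 at day 4, and at 24.1, 23.4 and 27.0 at day 8. BF-4d replicate 2 was the highest of all libraries and BF-4d replicate 1 overlapped with day 2. Its IMF libraries were at 26.8, 26.4 and 24.9 TPM at day 0, at 18.4, 23.1 and 19.4 at day 2, at 26.5, 30.4 and 23.8 at day 4, and at 45.4, 45.9 and 40.8 at day 8, so day 8 stood above all earlier days. The BF-0d and BF-2d libraries did not overlap, with a log2 difference of 0.68 ± 0.20 (SE, adjusted p = 0.0972 by limma), which edgeR (0.73, adjusted p = 0.0196) and DESeq2 (0.74, adjusted p = 0.00637) called. The IMF-0d vs. IMF-8d log2 difference was 0.73 ± 0.11 (SE, adjusted p = 0.00445 by limma), and the call held in all 6 fits without a library. IMF-4d vs. IMF-8d had a log2 difference of 0.70 ± 0.15 (SE, adjusted p = 0.0220 by limma), held in 2 of 6 such fits, and was lost without IMF-4d replicate 1 or any 1 IMF-8d library (adjusted p from 0.0576 to 0.120). It was also lost with edgeR (0.0619), DESeq2 (0.0721), median-of-ratios scaling (0.0889) and no filter (0.0540). In BF-0d vs. BF-8d the log2 difference was 0.49 ± 0.22 (SE, adjusted p = 0.0802 by limma). In BF-4d vs. BF-8d it was -0.998 ± 0.36 (SE, adjusted p = 0.146 by limma). Without BF-4d replicate 1 it was -1.39 and passed (adjusted p = 0.00592), and BF-2d vs. BF-4d passed without that library too, with a log2 difference of 1.20 (adjusted p = 0.0158). With all libraries BF-2d vs. BF-4d had 0.81 ± 0.35 (SE, adjusted p = 0.165 by limma). Over the 6 limma fits without a library, BF-4d vs. BF-8d shrank to -0.60 and BF-2d vs. BF-4d to 0.41, with adjusted p up to 0.331 and 0.439.

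ssc-miR-362 was at 10.8 to 22.6 TPM over all libraries. Its BF libraries were at 18.7, 17.8 and 15.4 TPM at day 0 and at 12.7, 11.4 and 18.2 at day 8, and its IMF libraries at 18.7, 13.2 and 12.5 at day 0 and at 22.6, 18.0 and 17.9 at day 8. Days 2 and 4 lay between 10.8 and 20.8 TPM. Day 0 and day 8 overlapped in both sources in TPM, and in BF alone with median-of-ratios scaling. The log2 difference was -0.30 ± 0.23 in BF (SE, adjusted p = 0.313 by limma) and 0.39 ± 0.19 in IMF (SE, adjusted p = 0.158). In the order of the group means, every neighbouring pair of groups overlapped.

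ssc-miR-660 rose in IMF and did not pass the test in BF. Its IMF libraries were at 9.66, 9.08 and 10.1 TPM at day 0, at 9.89, 11.06 and 11.12 at day 2, at 8.97, 12.6 and 12.5 at day 4, and at 18.1, 16.1 and 14.8 at day 8. In TPM all 3 day 8 libraries were above the 9 earlier ones. With median-of-ratios scaling they were above day 0 but met day 4, whose highest library was at 16.10 against 16.07 for the lowest at day 8. The means were 9.60 ± 0.50 and 16.3 ± 1.67 TPM (SD, n = 3) at day 0 and day 8, a log2 difference of 0.70 ± 0.14 (SE, adjusted p = 0.00906 by limma), and the call held in all 6 fits without a library. Its BF libraries were at 17.4, 11.7 and 14.4 TPM at day 0, at 13.1, 14.6 and 10.9 at day 2, at 14.6, 14.9 and 12.7 at day 4, and at 9.19, 14.03 and 8.68 at day 8. The BF day 0 and day 8 libraries overlapped in TPM, though not with median-of-ratios scaling, with means of 14.5 ± 2.89 and 10.6 ± 2.95 TPM (SD, n = 3) and a log2 difference of -0.43 ± 0.24 (SE, adjusted p = 0.166 by limma). DESeq2 alone called that difference, at -0.62 (adjusted p = 0.0486).

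**Figure D3:**
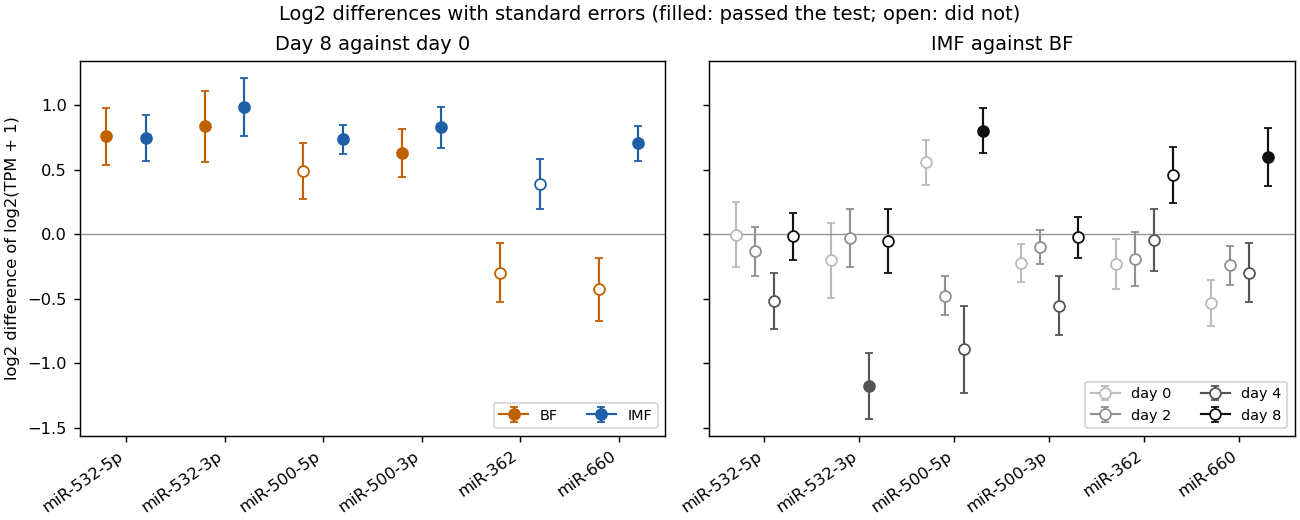
The y axis gives the log2 difference of log2(TPM + 1) with its standard error, for day 8 against day 0 in each source on the left and for IMF against BF at each day on the right (filled symbols passed the test, open symbols did not). For ssc-miR-660 the day 8 difference was 0.70 in IMF and -0.43 in BF.

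Whether the time course of a member differed between the sources was tested with limma over all 24 libraries, as an interaction of source and day (a moderated F test). It passed for 3 of 6 members, where 31.6% of all tested entries passed. These were ssc-miR-500-5p (adjusted p = 0.000824 by limma), ssc-miR-660 (0.00952) and ssc-miR-532-3p (0.0413). ssc-miR-532-5p (adjusted p = 0.438 by limma), ssc-miR-500-3p (0.246) and ssc-miR-362 (0.214) did not pass. The contrast of the day 0 to day 8 changes alone passed for 1 member, where 20.7% of the entries passed. ssc-miR-660 changed by 1.13 ± 0.27 more in IMF than in BF on the log2 scale (SE, adjusted p = 0.00371 by limma), and the other 5 had adjusted p of 0.106 and above. The ssc-miR-660 contrast was 0.85 without replicate 1 of every group and did not pass (adjusted p = 0.137 by limma). For the F test, ssc-miR-660 was lost without replicate 1 (adjusted p = 0.328 by limma) or 3 (0.0828) and ssc-miR-500-5p without replicate 3 (0.0506). ssc-miR-532-3p was lost without any 1 replicate (adjusted p from 0.0984 to 0.243), with a pseudocount of 0.1 (0.0546), with median-of-ratios scaling (0.0828), with no filter (0.105), and with edgeR (0.173) and DESeq2 (0.104). It held in 1 of 6 alternatives that kept all libraries.

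Compared at the same day, few members differed between IMF and BF. At day 0, 0 of 6 passed, where 29.3% of all tested entries passed. An unadjusted p under 0.05 was found for 2 members, beside 187 of the 430 entries: ssc-miR-500-5p, with a log2 difference of 0.56 ± 0.17 (SE, adjusted p = 0.0574 by limma), and ssc-miR-660, with -0.53 ± 0.18 (adjusted p = 0.0715). The libraries of the sources did not overlap for either, as for 78 entries that were higher and 127 that were lower in IMF. edgeR, DESeq2 and median-of-ratios scaling each called ssc-miR-500-5p. Without BF-0d replicate 1 limma called it too (log2 difference 0.72, adjusted p = 0.0253), and without BF-0d replicate 2 it called ssc-miR-660 (-0.67, adjusted p = 0.0429). At day 2, 0 of 6 passed, where 12.3% of the entries did. ssc-miR-500-5p alone was at an unadjusted p under 0.05, beside 125 entries, with -0.47 ± 0.15 (SE, adjusted p = 0.101 by limma), and edgeR and DESeq2 called no member.

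At day 4, ssc-miR-532-3p was lower in IMF, where 28.8% of all tested entries were lower. Its means were 9.89 ± 1.52 TPM in BF-4d and 3.91 ± 1.19 TPM in IMF-4d (SD, n = 3), a log2 difference of -1.17 ± 0.25 (SE, adjusted p = 0.00307 by limma), and the libraries did not overlap. The call held in all 6 fits without a library and not with edgeR (-0.91, adjusted p = 0.0538) or no filter (0.0678). All 6 members had a negative log2 difference, with a median of -0.54, beside -0.34 over all tested entries. With median-of-ratios scaling the members' median was -0.11. Over the scalings and tools tried, the differences reached 0.40 for ssc-miR-362 and 0.16 for ssc-miR-660, so the direction of these 2 is not fixed. ssc-miR-500-5p had a log2 difference of -0.89 ± 0.34 (SE, adjusted p = 0.0564 by limma), which passed without BF-4d replicate 1 (-1.29, adjusted p = 0.00309). Over the 6 limma fits without a library the difference ran from -1.29 to -0.49, with adjusted p up to 0.240. It passed in 4 of 9 alternatives that kept all libraries, among them one fit of all libraries (adjusted p = 0.00380), a minimum of 10 TPM (0.0164) and a pseudocount of 0.1 (0.0277), with adjusted p up to 0.395 in the others.

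At day 8, ssc-miR-500-5p and ssc-miR-660 were higher in IMF, where 12.1% of all tested entries were higher. ssc-miR-500-5p was at 24.8 ± 1.95 TPM in BF-8d and 44.0 ± 2.80 TPM in IMF-8d (SD, n = 3), a log2 difference of 0.80 ± 0.17 (SE, adjusted p = 0.00203 by limma), and no alternative ended this call. ssc-miR-660 had a log2 difference of 0.60 ± 0.22 (SE, adjusted p = 0.0459 by limma), with no overlap of the libraries. It was called only without BF-8d replicate 2 among the 6 fits that left out a library, with adjusted p of 0.0712 to 0.142 in the other 5, and not with no filter (0.177). ssc-miR-362 had 0.46 ± 0.22 (SE, adjusted p = 0.108 by limma) and was called by edgeR, DESeq2 and median-of-ratios scaling, and without BF-8d replicate 3 (0.64, adjusted p = 0.0290). For ssc-miR-532-5p, ssc-miR-532-3p and ssc-miR-500-3p the differences were -0.02, -0.05 and -0.02, and they turned positive with other scalings, up to 0.31, 0.25 and 0.32. Over all entries, 52 of 160 calls were higher in IMF, against 79 of 150 with median-of-ratios scaling. At day 0, day 2 and day 4 the 2 splits were 58 of 126 and 65 of 102, 25 of 53 and 35 of 60, and 32 of 156 and 51 of 120.

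The summed levels of markers of other cells also differed between some of these groups. Most of the skeletal muscle sum was ssc-miR-1, with a mean of 1737 of 1773 TPM in BF-8d. The 7 skeletal muscle entries summed to 475 to 544 TPM in BF-2d and 1043 to 1526 in BF-4d, and the 2 entries of the endothelial miR-126 to 26.4 to 53.5 TPM and 53.6 to 86.4, neither with overlap in TPM, between the days over which ssc-miR-532-3p rose. With median-of-ratios scaling the miR-126 sums overlapped. From BF-0d to BF-2d the muscle sum fell without overlap, from 819 to 1013 TPM to 475 to 544, while the ssc-miR-532-3p means were 4.36 and 4.30 TPM. At day 2 the muscle sum was higher in all IMF libraries, at 814 to 1065 TPM, than in any BF library. Both held with median-of-ratios scaling. The muscle entries summed to 1043 to 1526 TPM in BF-4d and 696 to 985 in IMF-4d, and to 1324 to 2362 in BF-8d and 982 to 1632 in IMF-8d. The miR-126 entries summed to 53.6 to 86.4 TPM in BF-4d and 18.7 to 30.9 in IMF-4d, and to 51.2 to 90.9 in BF-8d and 24.6 to 34.8 in IMF-8d. At day 4 both sums were lower in all 3 IMF libraries than in any BF library, and at day 8 this held for miR-126. With median-of-ratios scaling the day 4 muscle sums overlapped. At day 8 the 3 erythroid entries summed to 1.94 to 3.35 TPM in BF and 6.48 to 7.01 in IMF, against 0.284 to 0.772 in IMF-4d, and ssc-miR-486 passed as higher in IMF-8d than in BF-8d. Between day 0 and day 8 the muscle sum went from 819 to 1013 TPM to 1324 to 2362 in BF, where ssc-miR-1 and ssc-miR-133a-3p rose and ssc-miR-499-5p fell, and from 909.9 to 1739 TPM to 982 to 1632 in IMF, where ssc-miR-133a-3p rose. ssc-miR-486 rose from 0.384 ± 0.128 to 2.43 ± 0.58 TPM in BF and from 0.834 ± 0.405 to 6.27 ± 0.344 TPM in IMF (SD, n = 3), and ssc-miR-126-5p rose in BF. The part of these cells in the members' differences was not tested, and a smaller share of cells of one type cannot be told apart from less of a miRNA per cell.

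Ratios within a library do not depend on how libraries are scaled, and here they compare members of the cluster with each other. As a percentage of the reads of ssc-miR-532-5p, the group means of ssc-miR-362 in BF were 1.71% at day 0, 1.30% at day 2, 1.04% at day 4 and 0.812% at day 8. The 3 BF-0d libraries lay between 1.30% and 2.235% and the 3 BF-8d libraries between 0.594% and 1.21%, with no overlap, a log2 difference of -1.08. In IMF the ratio was 1.45% at day 0 and 1.15% at day 8, with overlap. For ssc-miR-660 the ratio was 1.42% in BF-0d and 0.610% in BF-8d, with overlap, and 0.955% and 0.966% in IMF-0d and IMF-8d. ssc-miR-500-3p was between 5.995% and 7.19% in the means of all 8 groups.

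Over both sources, the ratio of ssc-miR-362 to ssc-miR-532-5p was lower at day 8 than at day 0 by 0.70 on the log2 scale. An exact permutation test that kept the libraries within their source gave a two-sided p of 0.035, or 0.42 after Benjamini-Hochberg adjustment over the 12 ratio tests, and so did not pass. The difference for ssc-miR-660 was -0.60 (exact permutation p = 0.135, adjusted 0.637), and none of the 12 tests passed. Each single comparison of 3 against 3 libraries by exact permutation could reach no p below 0.1.

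**Figure D4:**
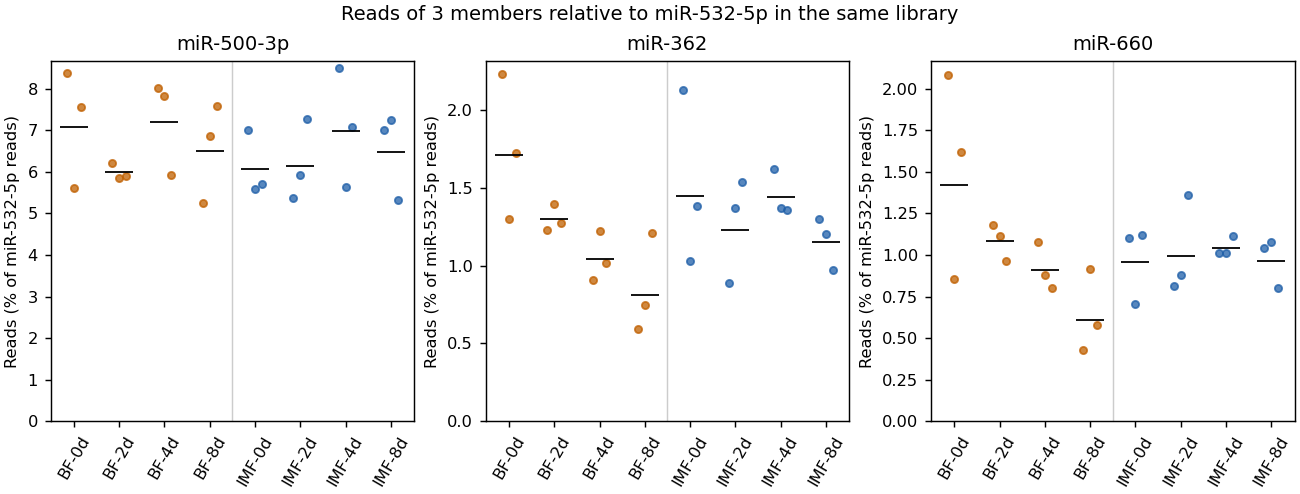
The y axis gives the reads of ssc-miR-500-3p, ssc-miR-362 or ssc-miR-660 as a percentage of the reads of ssc-miR-532-5p in the same library, the x axis the 8 groups, each point a library and each black bar a geometric mean. The bars of ssc-miR-362 go from 1.71% to 0.812% in BF, and those of ssc-miR-660 stay between 0.955% and 1.04% in IMF.

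The arms of the hairpins were unequal in all libraries. ssc-miR-532-5p outnumbered ssc-miR-532-3p by 157-fold in BF-4d to 286-fold in IMF-0d by the group means. In the miR-500 hairpin the 3p arm was the more abundant, and its 5p reads were 24.3% of its 3p reads in BF-0d, 40.2% in BF-2d, 45.5% in BF-4d and 22.4% in BF-8d. In IMF they were 42.7%, 30.6%, 35.7% and 40.4% on the same days. The sources did not overlap in this ratio at day 0, day 2 or day 8, being higher in IMF at day 0 and day 8 and higher in BF at day 2. Over all days the difference between IMF and BF was 0.23 on the log2 scale (exact permutation p = 0.217, adjusted 0.637). Since the 5p sequence has a second copy, the ratio counts reads from both hairpins over the 3p arm of one.

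**Figure D5:**
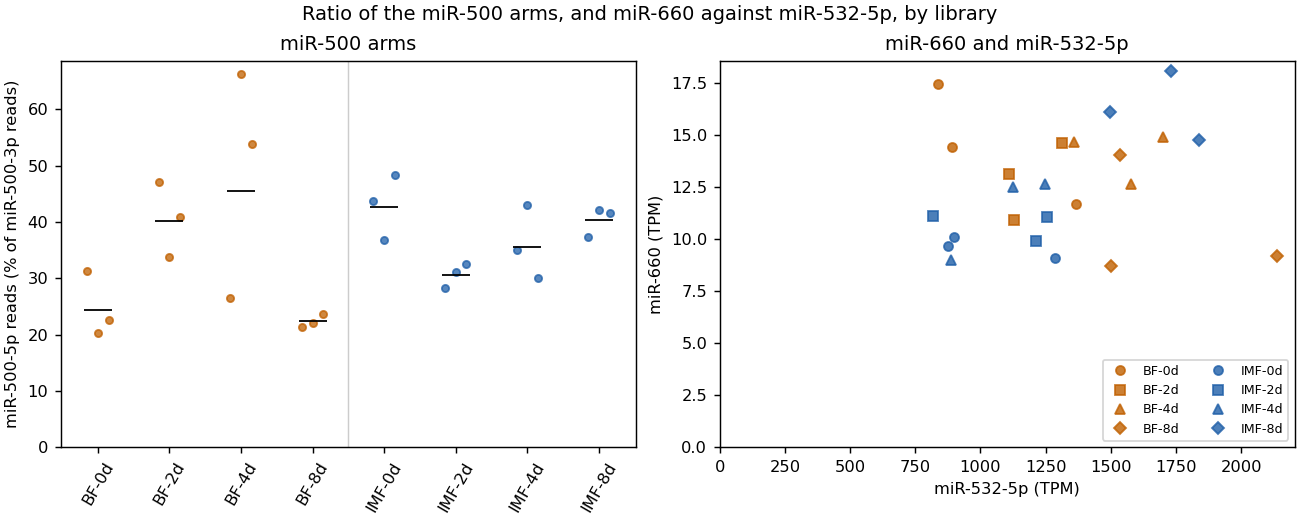
On the left, ssc-miR-500-5p reads as a percentage of ssc-miR-500-3p reads are plotted by group, with a point for each library and a black bar for the geometric mean, 24.3% in BF-0d and 42.7% in IMF-0d. On the right, the ssc-miR-660 level is plotted against that of ssc-miR-532-5p, both in TPM, with 1 symbol per library (BF in orange, IMF in blue): the IMF-8d libraries are high in both, and the BF-8d library highest in ssc-miR-532-5p, at 2140 TPM, has 9.19 TPM of ssc-miR-660.

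The levels of the members were compared pairwise within each source. Over the 12 IMF libraries Pearson's r of log2(TPM + 1) was between 0.54 and 0.83 for the 15 pairs of members. Over the 12 BF libraries it ran from -0.54, for ssc-miR-532-5p with ssc-miR-660, to 0.81, for ssc-miR-532-5p with ssc-miR-500-3p, and it was below 0 for 5 of the 15 pairs. The difference between the sources was not tested. These values are descriptions, since the libraries of a group share a day and a source and all levels share the library total.

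Among the 264 known entries tested that are no members, the profile over the 24 libraries most like that of ssc-miR-532-5p was that of ssc-miR-769-5p (r = 0.88), followed by ssc-miR-101 (0.86), ssc-miR-30a-3p (0.85), ssc-miR-10b (0.82) and ssc-miR-215 (0.80). The median r over the 264 entries was 0.24. The nearest profiles were ssc-miR-7141-5p and ssc-miR-324 for ssc-miR-532-3p (0.84 each), ssc-miR-30a-5p and ssc-miR-30b-5p for ssc-miR-500-3p (0.89 and 0.86), and ssc-miR-30a-5p and ssc-miR-30c-5p for ssc-miR-500-5p (0.74 and 0.72). ssc-miR-660 was nearest to ssc-miR-374a-5p (0.76) and ssc-miR-335 (0.69), and ssc-miR-362 to ssc-miR-671-5p (0.61) and ssc-miR-335 (0.56).

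miRNAs reported to promote or inhibit adipogenesis were counted for comparison. For 14 promoting miRNAs 24 entries were found. Of the 23 that were tested, 8 rose and 2 fell in BF-0d vs. BF-8d, and 8 rose and 0 fell in IMF-0d vs. IMF-8d. Over all tested entries, 27.9% rose and 14.9% fell in BF, and 19.8% rose and 10.7% fell in IMF. ssc-miR-30b-5p, of a family known to favour adipocyte differentiation, went from 46.7 ± 3.45 to 366 ± 62.04 TPM in BF and from 27.3 ± 5.45 to 191 ± 11.07 TPM in IMF (SD, n = 3). The 2 that fell in BF were ssc-miR-143-5p, from 102 ± 39.5 to 40.5 ± 11.6 TPM (SD, n = 3), and ssc-miR-21-5p. The latter had a log2 difference of -0.71 (adjusted p = 0.0143 by limma). For 17 of 18 inhibiting miRNAs 25 entries were found. Of the 24 that were tested, 6 rose and 8 fell in BF, and 3 rose and 1 fell in IMF. The median log2 differences of the promoting list were 0.20 in BF and 0.19 in IMF and those of the inhibiting list -0.12 and 0.02, beside the members' 0.56 and 0.74.

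Other miRNA clusters that lie on the X chromosome of mammals were set beside this one. Of the 10 tested entries of miR-424, miR-503, miR-450 and miR-542, 2 rose in BF and 2 in IMF between day 0 and day 8, where 27.9% and 19.8% of all tested entries rose, with ssc-miR-424-5p going from 31.7 ± 5.44 to 63.2 ± 11.6 TPM in BF and from 14.7 ± 0.66 to 31.5 ± 1.68 TPM in IMF (SD, n = 3). The 3 entries of miR-221 and miR-222, miRNAs linked to cell proliferation, all rose in BF and 0 of 3 passed in IMF. miR-224 and miR-452 rose in both sources. In BF-0d their means were 0.102 and 0.110 TPM, where 1 read was worth up to 0.0904 TPM, so the BF change starts near 0 reads. The medians of the log2 differences were 0.01 and 0.28 for the first cluster, 1.69 and 0.34 for the second and 3.90 and 2.55 for the third, in BF and IMF.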

How the data were processed

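Per the study's methods, the authors trimmed and filtered 50 nt single-end reads, mapped them to Sscrofa11.1 with Bowtie without mismatches, removed annotated tRNA, rRNA, snoRNA and snRNA, matched miRNAs to miRBase by BLAST, predicted further miRNAs with miRDeep2 and ran DESeq2 for differences. The submitters' processing notes list Bowtie, DESeq2 and Sscrofa11.1. The versions of the tools run on the small RNA reads are not given in the sources used here. The authors deposited 1 table of 1587 entries in 24 libraries, whose values, called TPM, are RPM, reads per 1000000 reads counted on miRNAs: each column sums to 1000000. All 38088 values lay within 0.000452 of a whole number of reads, so whole reads were recovered from them for the count tests.

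Groups came from the sample labels. The 430 entries (270 known) whose mean over the 24 libraries reached 1 TPM were tested with limma 3.58.1 (eBayes with trend, R 4.3.3) on log2(TPM + 1), using the libraries of the 2 groups compared, or all libraries for the interaction. This scale understates the change of low entries. A call needed a Benjamini-Hochberg FDR under 0.05 and, between groups, a fold change above 1.5. The F test and the contrast of changes needed the FDR alone. Ratios were compared by exact two-sided permutation within source or day, over 12 tests. The scripts were tested on simulated data first. Mature sequences and precursor positions came from the study's supplementary sequence table, 1 per entry for 958 entries, and hairpins, genomic copies and genes from Sscrofa11.1 and its RefSeq annotation.

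Within a group, every pair of libraries differed beyond sampling noise (chi-square over its degrees of freedom 38.8 or higher), and all were kept. Ranges of reads cover counting error only, since PCR copies were not removed. Taken over all groups, the replicate numbers showed no pairing of the libraries. Same-numbered libraries of different groups had r from -0.33 to 0.51 in their deviations from the group means, with a median of -0.0035. In 1 of 28 pairs of groups all 3 same-numbered r were over 0.1, and the median does not settle pairing between single groups. Alternatives tried were adding 0.1 in place of 1, testing without a filter, a minimum mean of 10 TPM, a single fit over all 24 libraries, a replicate block, median-of-ratios scaling, edgeR 4.0.16, DESeq2 1.42.0, no fold criterion, and leaving out libraries. For ratios they were 0.5 added reads, medians, and leaving out a replicate number. The members and lists were chosen with earlier results of these data known. Named, beside the members, were entries with a precursor within 10 kb of theirs, the entries with the highest r (5 for ssc-miR-532-5p and 2 for each other member), up to 3 called entries per list and direction, the marker entries, and ssc-miR-21-5p. novel_miR_1130, USP27X and CLCN5 were named for their sequence or place. The markers ssc-miR-1, ssc-miR-133a-3p, ssc-miR-499-5p, ssc-miR-206, ssc-miR-144, ssc-miR-223 and ssc-miR-150 were picked out after their values were seen. Python 3.11.15 with NumPy 2.4.6, pandas 2.3.3, SciPy 1.17.1 and Matplotlib 3.10.9 was also used.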

Additional observations from a re-analysis of the deposited data

Results flagged for a closer look

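By limma's interaction F test over the 24 libraries, 3 members passed for a difference in time course between BF and IMF: ssc-miR-500-5p (adjusted p = 0.000824), ssc-miR-660 (0.00952) and ssc-miR-532-3p (0.0413). For ssc-miR-500-5p the highest group mean was BF-4d in BF (55.8 TPM) and IMF-8d in IMF (44.0 TPM). For ssc-miR-660 the change from day 0 to day 8 also differed by itself, by 1.13 ± 0.27 on the log2 scale (SE, adjusted p = 0.00371 by limma), with means of 14.5 and 10.6 TPM in BF and of 9.60 and 16.3 TPM in IMF. For ssc-miR-532-3p, the BF-4d mean was 9.89 TPM and the IMF-4d mean 3.91 TPM. The ssc-miR-532-3p result was lost in 5 of 6 alternatives that kept all libraries and in all 3 fits without 1 replicate number. The ssc-miR-660 result was lost in 2 of these 3 fits, its contrast of changes in 1, and the ssc-miR-500-5p result in 1. These 3 are of 6 members, beside 31.6% of all tested entries. Groups of 3 libraries are too small for a check of single outlying libraries.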

How the results depend on the processing

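Counts of members called, out of 6, moved with the setting. With no filter on low levels, over 1587 entries, 1 was called in BF-0d vs. BF-8d, 2 in IMF-0d vs. IMF-8d, 1 in BF-8d vs. IMF-8d, and 0 in BF-2d vs. BF-4d, IMF-4d vs. IMF-8d and BF-4d vs. IMF-4d. The minimum of 10 TPM, which leaves out ssc-miR-532-3p, gave 0 in BF-2d vs. BF-4d. One fit of all libraries gave 3 in BF-2d vs. BF-4d, 1 in BF-4d vs. BF-8d and 2 in BF-4d vs. IMF-4d, and the pseudocount of 0.1 gave 2 in the last. edgeR gave 1 in BF-0d vs. BF-2d, 1 in BF-0d vs. IMF-0d, 1 in IMF-4d vs. IMF-8d, and 0 in BF-2d vs. BF-4d and BF-4d vs. IMF-4d. DESeq2 gave 1 in BF-0d vs. BF-2d, BF-4d vs. BF-8d, BF-0d vs. IMF-0d and IMF-4d vs. IMF-8d. Median-of-ratios scaling gave 1 in BF-0d vs. IMF-0d and 0 in IMF-4d vs. IMF-8d. As an alternative chosen after seeing the data, median-of-ratios scaling left 1 member, against 4, with all BF-8d libraries above all BF-0d libraries. Without 1 library the counts ran from 1 to 3 in BF-0d vs. BF-8d, 3 to 5 in IMF-0d vs. IMF-8d, 0 to 2 in BF-2d vs. BF-4d and IMF-4d vs. IMF-8d, 0 to 1 in BF-4d vs. BF-8d and BF-0d vs. IMF-0d, and 1 to 2 in BF-4d vs. IMF-4d, as in BF-8d vs. IMF-8d. Without 1 replicate number the interaction count ran from 0 to 2. The cause was not tested, beyond fewer libraries or other numbers of entries in the fit. No called difference changed sign under any alternative.

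Over all groups the replicate numbers showed no pairing: of 84 same-numbered pairs of libraries, 21 had r over 0.1, as did 41 of 168 pairs with different numbers. Pairing between single groups, such as BF and IMF of the same day, was not tested. With the replicate block, 1 member was called in IMF-4d vs. IMF-8d, 2 in BF-4d vs. IMF-4d and 1 in BF-8d vs. IMF-8d, and the other member counts stayed within 1.5 times. The block ended the calls of ssc-miR-532-5p (adjusted p = 0.0994 by limma) and ssc-miR-500-5p (0.0669) in IMF-4d vs. IMF-8d and of ssc-miR-660 (0.0913) in BF-8d vs. IMF-8d, and added that of ssc-miR-500-5p (0.0389) in BF-4d vs. IMF-4d.

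None of the 12 ratio tests passed under any alternative. Without 1 replicate number the log2 difference between day 8 and day 0 ran from -0.27 to 0.74 for ssc-miR-532-3p over ssc-miR-532-5p. It ran from -0.91 to -0.40 for ssc-miR-362 over ssc-miR-532-5p and from -1.08 to -0.31 for ssc-miR-660 over ssc-miR-532-5p. These leave-outs cannot reach a p of 0.05 and are given as values.

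Over all entries, the counts behind the percentages moved by more than 1.5 times in places. In BF-0d vs. BF-2d 18 calls became 5 with no filter, 0 with the block, 37 by median-of-ratios, 46 in one fit, and 56 by edgeR and by DESeq2. In BF-2d vs. BF-4d 26 became 0 with no filter, 17 by edgeR, 42 with the block, 54 by DESeq2 and 104 in one fit, and in BF-4d vs. BF-8d 13 became 3 with no filter, 24 by DESeq2 and 81 in one fit. In the first 2 IMF steps, limma's 0 became at most 9 and 2 under settings that kept all libraries. Without 1 library, calls ran from 0 to 42 in BF-0d vs. BF-2d, 2 to 78 in BF-2d vs. BF-4d, 0 to 30 in BF-4d vs. BF-8d, 0 to 12 in IMF-0d vs. IMF-2d, 32 to 62 in IMF-4d vs. IMF-8d and 2 to 85 in BF-2d vs. IMF-2d, and without 1 replicate number from 57 to 89 in the interaction and 38 to 62 in the contrast of changes. With no filter 56 became 28 in IMF-4d vs. IMF-8d, 131 became 70 in IMF-0d vs. IMF-8d, and the source comparisons at day 0, day 2 and day 4 fell from 126, 53 and 156 to 76, 2 and 50, while the block gave 9 at day 2. The minimum of 10 TPM left 224 entries, with 105 calls in BF-0d vs. BF-8d, 76 in IMF-0d vs. IMF-8d, 101 in BF-8d vs. IMF-8d and 77 in the interaction.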
